A study of Mus musculus with 10 samples.

Results

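The effect of adding Snai1 to cardiac reprogramming was followed on 3 of the 10 arrays of the series, chosen by their titles. They are the day 7 array of induced cardiomyocyte-like cells (iCM) made with GMT, miR-133 and Snai1 (the Snai1 array), and 2 day 7 arrays of iCM made with GMT and miR-133 alone (the controls). All 3 come from mouse embryonic fibroblasts (MEF). The cells received pMx retroviruses with polybrene, together with a transfected synthetic mimic of miR-133a, and were sorted at day 7 for green fluorescent protein driven by the α-MHC promoter. The 2 controls share title and treatment but not their history: the second control (title ending in -2) was scanned in the session of the Snai1 array, and the first control in an earlier session with the day 7 GMT array. A probe was therefore counted only when the Snai1 array differed in the same direction from each control. Every other array of the series served as a reference for where such probes stand. These are MEF, heart tissue, GMT iCM of days 3, 7 and 18, and GMT/miR-133 iCM of days 3 and 18, with 1 array for each.

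GMT stands for Gata4, Mef2c and Tbx5, cardiac transcription factors that together turn part of a fibroblast culture toward a cardiomyocyte-like state. miR-133 is a microRNA abundant in heart and skeletal muscle. Snai1 is a zinc-finger repressor that binds E-box sequences, silences epithelial genes and drives epithelial-mesenchymal transition, and it is active in fibroblasts. It has been reported as a target of miR-133, so adding it back with miR-133 asks whether the microRNA acts through it. The α-MHC promoter belongs to Myh6, a cardiac myosin heavy chain, so the sort keeps only cells in which that promoter is active.

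Several points about these arrays bear on every value. The chip names its probes by ID alone, and the gene table at hand listed 0 of the 23473 IDs. Neither the added Snai1 transcript nor the markers of any cell type could therefore be looked up, and the label of the Snai1 array is unchecked. The description of the second control names GMT alone, against its title and treatment. In the authors' value table, the column of the first control matches the scanner file deposited for day 3 GMT/miR-133 (r = 0.99999 across probes, compared with 0.974 for its own file), while the columns of the second control and of the Snai1 array match their own files. The first control may thus be a day 3 array, and the day 3 file was run in its place as an alternative. Blank spots had a median intensity of 45 on the second control and 48 on the Snai1 array, compared with 24 on the first control, and 18259, 18345 and 19395 probes were detected above them. Each group has 1 or 2 arrays and the labels name no separate cultures. In a pool of sorted cells, fewer cells of a type and less RNA per cell cannot be told apart.

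Of 20209 probes detected on at least 1 of the 3 arrays, 83 (0.411%) were at least 2-fold lower than both controls and 61 (0.302%) were at least 2-fold higher. Of the 83 lower probes, 38 were iCM-gained, meaning at least 2-fold above MEF on all 4 iCM arrays of days 3 and 18, a group of 398 tested probes. Of the 61 higher probes, 18 were iCM-lost, meaning at least 2-fold below MEF on the same 4 arrays, a group of 540. Most probes of both groups did not pass 2-fold against both controls. Another 27 higher and 38 lower probes belonged to none of the probe groups described here.

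The 2-fold limit is a size and not a test, because Snai1 has 1 array. At any size, 6653 probes (32.9%) were higher and 6270 (31%) lower than both controls, and 7 probes (0.0346%) differed 2-fold in opposite directions. Both differences share the Snai1 array, so such shares and few opposite calls would arise even among 3 interchangeable arrays. The controls themselves differed 2-fold at 374 probes, with 193 (0.955%) higher on the second and 181 (0.896%) lower. That is close to the 175 (0.866%) higher and 245 (1.21%) lower on the Snai1 array against the first control, and to the 163 (0.807%) higher and 238 (1.18%) lower against the second. The standard deviation of the differences over all tested probes was 0.35 against the first control, 0.33 against the second and 0.34 between the controls. The 3 spreads were thus of similar size. Of the 144 probes that pass against both, the controls lay closer together than 0.5 of the smaller difference at 48 of the 61 higher and at 62 of the 83 lower. The rule itself favours probes with close controls, and the same share was not counted for all tested probes.

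**Figure D1:**
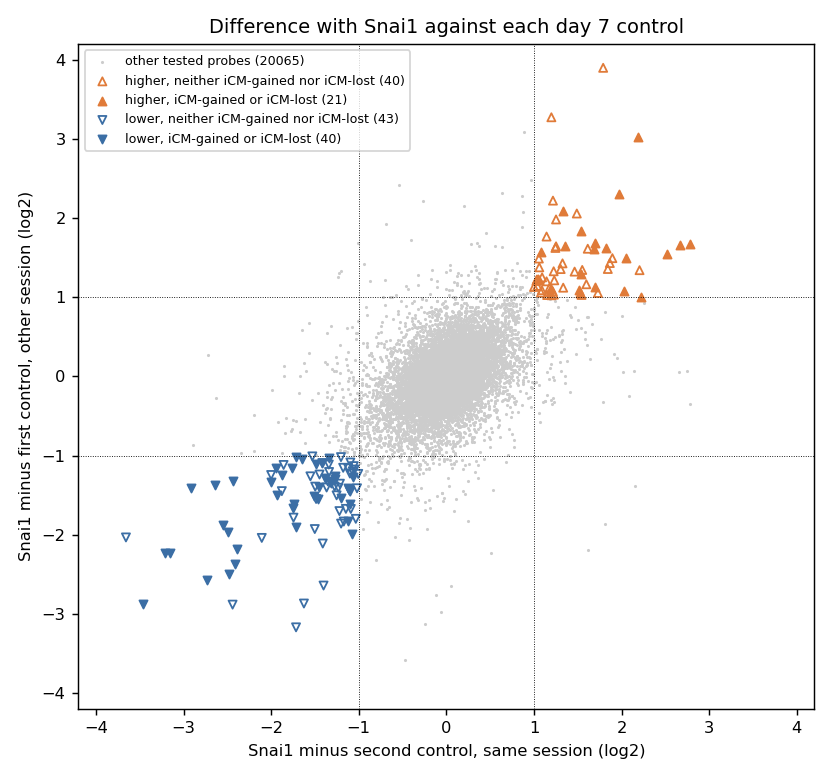
Difference of the Snai1 array from the second control (horizontal axis, log2) and from the first control (vertical axis, log2) for 20209 tested probes, with dotted lines at 2-fold. Triangles are the 61 higher and 83 lower probes, filled where the probe is iCM-gained or iCM-lost, and both axes share the Snai1 array, so a slope is built in.

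The probes with the largest decrease against both controls were mostly ones that iCM express above the starting fibroblasts. Of the 12 probes ranked by the smaller of their 2 differences, 9 were iCM-gained and 5 of these were also heart-high, with a heart signal 4 or more times that of MEF. M300020782 had a log2 level of 12.15 on the first control and 12.74 on the second, and of 9.28 with Snai1. Heart was at 9.67 and MEF at 6.92, and the other iCM arrays lay between 11.50 and 12.60, so that the Snai1 array alone among the 8 iCM arrays lay below the heart level. The difference amounted to 7.33-fold against the first control and 11.0-fold against the second.

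M300007301 was the probe on which the controls agreed most closely among the strongly lowered ones. It was at 9.37 on the first control, 9.36 on the second and 6.88 with Snai1, below the 7.54 of MEF and the 9.11 of heart. The differences were −2.49 and −2.48. The same held for M300001860, a heart-high probe, at 11.41 and 11.46 on the controls and 9.05 with Snai1, close to the 8.77 of MEF. The lowest of the other iCM arrays was at 9.26 on the first of these probes and at 11.18 on the other, above the Snai1 array in both cases.

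M300017999 was at 10.14 and 10.30 on the controls and at 7.56 with Snai1. M400003038 was at 9.54 and 9.75 and came to 7.36. Both are iCM-gained, and with Snai1 both stood next to their heart levels of 7.43 and 7.34. M200005725, heart-high, was at 9.23 on the first control and 10.16 on the second and reached 7.00 with Snai1, next to the 6.96 of MEF.

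M200006768 is among the brightest heart probes of this list, at 13.68 in heart and 7.43 in MEF. It was at 12.12 and 12.65 on the controls and at 10.15 with Snai1, so it remained above MEF with Snai1. M400011407 came from 10.55 and 11.22 to 8.67. M300018140 came from 8.48 and 9.46 to 6.25, although the day 7 GMT array, without miR-133, was already at 7.15. For these probes the controls differed by 0.53 to 0.97, less than the distance of either from the Snai1 array.

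The remaining 3 of the 12 were not iCM-gained. M400000034 was at 12.24 and 11.80 on the controls and 9.36 with Snai1, below the 10.14 of MEF and the 10.65 of heart. M200006901 was at 8.36 and 8.43 and came to 6.32, below MEF and heart, which were at 7.32 and 7.34. M200002898 was at 8.47 and 10.09 and came to 6.44, and here the gap between the controls, 1.62, was close in size to the smaller difference, −2.04. At these probes the Snai1 array was lower than every other array of the series.

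The largest increases were fewer and more mixed. Of the 12 probes ranked the same way, 8 were iCM-lost, 3 of them MEF-high (a MEF signal 4 or more times that of heart), while 2 were iCM-gained. M200002530, the probe with the largest increase against both controls, was at 9.81 and 10.65 on the controls and at 12.83 with Snai1. It was at 5.91 in MEF, 9.27 in heart and at most 10.93 on the other iCM arrays, so this heart-high and iCM-gained probe was further from MEF and from heart with Snai1 than on any other array. M400002638 showed the same arrangement, at 9.48 and 9.28 on the controls, 11.11 with Snai1, 5.92 in MEF and 6.44 in heart.

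Most iCM-lost probes among them were nearer to MEF with Snai1. M400011429 was at 6.78 on the first control and 7.12 on the second and at 9.09 with Snai1, next to the 8.88 of MEF, while heart was at 6.34. M300007075 was at 9.33 and 9.32 and came to 11.01, still below the 12.15 of MEF. M200008133 was at 7.07 and 7.36 and came to 8.90, compared with 9.10 in MEF. These 3 lay above all 7 other iCM arrays.

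M300003525, at 13.998 in MEF, was at 11.02 and 9.92 on the controls and at 12.69 with Snai1. M200006244 was at 7.18 and 6.21 and came to 8.72, compared with 10.79 in MEF. M300013932 was at 7.38 and 6.84 and came to 8.89, compared with 9.71 in MEF. M200001390 was at 7.19 and 6.18 and came to 8.85, past the 7.48 of MEF. For all 4 the second control was the lower one, by 0.54 to 1.10, so the difference with Snai1 is smaller against the first control than against the second.

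M200008066 was near the bottom of the scale without Snai1, at 5.77 on the first control, and was not detected on the second. With Snai1 it was at 7.38, a difference of 1.61 from the first control and of at least 1.59 from the second, and MEF was at 7.85. M200006283 stood apart because it is heart-high and not iCM-gained: 6.41 on both controls, 8.02 with Snai1, 7.84 in MEF and 10.82 in heart. M200003295 was at 5.92 and 8.03 on the controls and 9.82 with Snai1, above MEF, heart and all iCM arrays, but with a gap of 2.11 between its controls. On all 24 probes the Snai1 array lay beyond the 7 other iCM arrays.

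**Figure D2:**
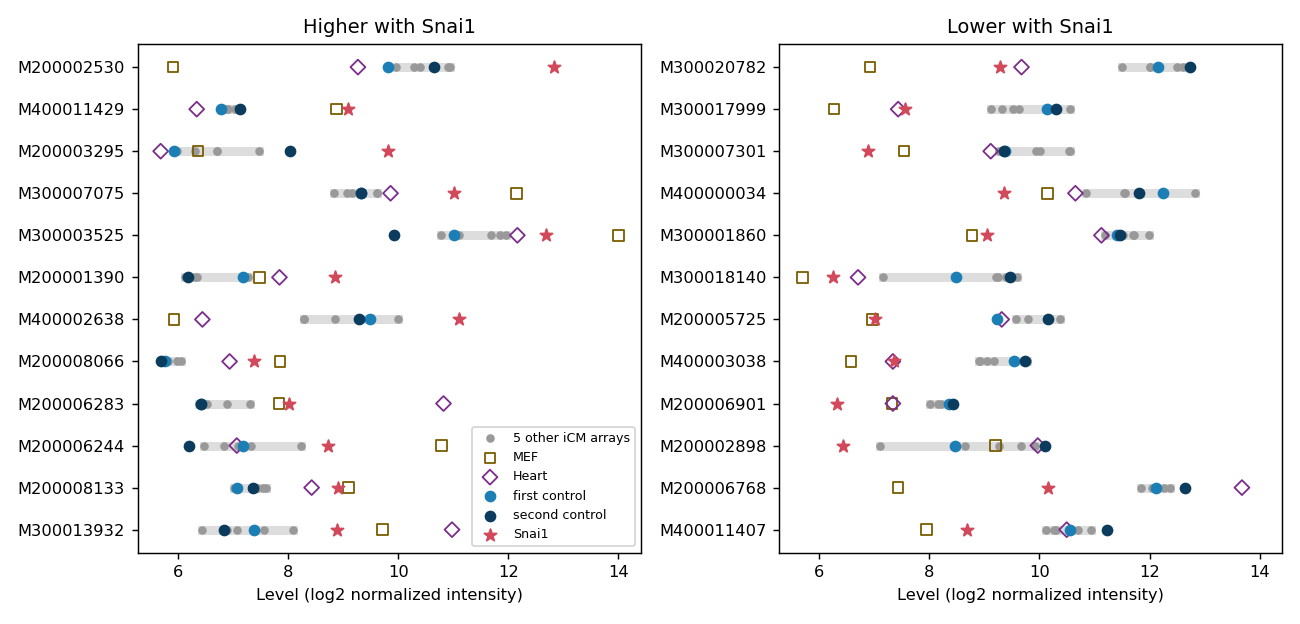
Log2 normalized level of the 12 probes highest (left) and the 12 lowest (right) with Snai1 against both controls, on each of the 10 arrays. Grey points are the 5 iCM arrays that are neither control nor Snai1, the stars are the Snai1 array, and in each row the star lies outside all other iCM points.

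Among all 144 probes, not only the named ones, the Snai1 array was often outside the range of the other iCM arrays. It was at least 2-fold beyond each of the 7 at 21 higher and 42 lower probes, where the rule itself had fixed this for the 2 controls. Against the day 7 GMT array, which carries neither miR-133 nor Snai1, 37 of the 61 higher and 63 of the 83 lower probes were also past 2-fold in the same direction. At 4 higher probes and 1 lower probe the Snai1 array was on the other side of the GMT array. These probes were picked by their level on the Snai1 array, which this difference uses again, so such agreement is partly built in. The share of all tested probes past 2-fold from the GMT array was not counted.

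Where MEF stood at least 2-fold from the other iCM arrays used to place it, most called probes lay in the direction of MEF. Where MEF was at least 2-fold below the mean of the day 3 and day 18 iCM arrays, 43 of 604 tested probes (7.12%) were lower with Snai1 and 4 (0.662%) higher. Where MEF was at least 2-fold above that mean, 25 of 715 (3.50%) were higher and 2 (0.280%) lower. Where MEF was within 2-fold, 38 of 18890 (0.201%) were lower and 32 (0.169%) higher. This last class held 38 of the 83 lower and 32 of the 61 higher probes, for which MEF gives no direction. The comparison uses no array of the 3 to place MEF.

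iCM-gained probes stood out most by count. Of 398 tested, 38 (9.55%) were lower than both controls with Snai1 and 3 higher, beside 0.411% and 0.302% of all tested probes. By brightness, 1.44% of the 1322 probes with a mean log2 level of 10 or more over the other iCM arrays were lower. Of 3507 probes between 8 and 10, 1.23% were lower. These mean levels include both controls, the bins still hold the iCM-gained probes, and the part played by brightness was not tested. The 38 had a median level of 9.13 on the first control, 9.28 on the second and 7.32 with Snai1, with MEF at 6.63 and heart at 8.94. Their median distance above MEF was 1.94 and 2.30 on the controls and 0.51 with Snai1. With Snai1, 25 of them were within 2-fold of MEF and 12 were still at least 2-fold above it. These levels describe probes picked for being lower, and the group as a whole moved less: its median difference was −0.088 against the first control and −0.42 against the second.

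Probes that were both heart-high and iCM-gained held the highest share, 18 of 104 (17.3%) lower and 1 higher. M300001745 is an example with a bright heart signal, at 14.90 in heart and 6.10 in MEF: it was at 9.20 and 9.32 on the controls and at 7.58 with Snai1. M400000521, at 14.56 in heart, went from 12.49 and 12.81 to 11.40 and so kept most of its distance from the 6.12 of MEF. M200000366 was at 10.88 and 12.39 on the controls and at 9.47 with Snai1, near the 9.58 of the day 7 GMT array. M400011317 was at 7.63 on both controls and at 6.12 with Snai1, near the 5.92 of MEF. These 4 were picked after their values were seen. Across the 18, differences ran from −2.87 to −1.04 against the first control and from −3.46 to −1.07 against the second.

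Heart-high probes that iCM had not gained held fewer probes past 2-fold against both controls. Of 346 tested, 2 (0.578%) were lower and 3 (0.867%) higher. At any size, however, 169 (48.8%) were lower than both controls, compared with 54.8% of the heart-high and iCM-gained probes and 31% of all tested probes. Against the second control alone, 27 of the 346 were at least 2-fold lower and 3 higher, beside 1.18% and 0.807% of all tested probes. The group had medians of −0.059 against the first control and −0.22 against the second. iCM-gained probes that are not heart-high held 20 lower of 294 (6.80%) and 2 higher. The difference between these subgroups was not tested. An iCM-gained probe of another kind, picked after its values were seen, was M400007768: it was between 10.75 and 11.58 on the day 3 and day 18 arrays, at 7.11 on the day 7 GMT array, at 7.24 and 7.35 on the controls and at 5.96 with Snai1.

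In the other direction, 17 of 326 tested MEF-high probes (5.21%) were higher than both controls and 5 (1.53%) lower. Of the 17, 12 were within 2-fold of MEF with Snai1 and 5 were still at least 2-fold below it. M200009370, which differs widely between MEF (13.18) and heart (6.72), was at 8.27 and 8.77 on the controls and at 9.84 with Snai1, still well below its fibroblast level. M300007772 was at 8.15 and 7.67 and came to 9.51, compared with 10.86 in MEF. M400011145 was at 11.52 and 11.12 and came to 13.02, above the 12.08 of MEF. The 5 MEF-high probes that were lower ran the other way: M400010742 was at 10.35 and 8.89 on the controls and at 7.18 with Snai1, with MEF at 10.41, and M200006850 was at 10.28 and 10.24 and came to 8.50. M200009370, M300007772, M400010742 and M200006850 were picked after their values were seen.

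Of MEF-high probes that were also iCM-lost, 8 of 191 (4.19%) were higher and 1 lower. Of those that iCM had not lost, 9 of 135 (6.67%) were higher and 4 (2.96%) lower, so both shares lay above the 0.302% and 0.411% of all tested probes. iCM-lost probes as a group had 18 of 540 (3.33%) higher and 2 (0.370%) lower. The 18 had medians of 7.18 and 7.08 on the controls and 8.89 with Snai1, compared with 9.44 in MEF and 7.77 on the day 7 GMT array. As with the 17 MEF-high probes, these levels describe probes picked for being higher than both controls.

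**Figure D3:**
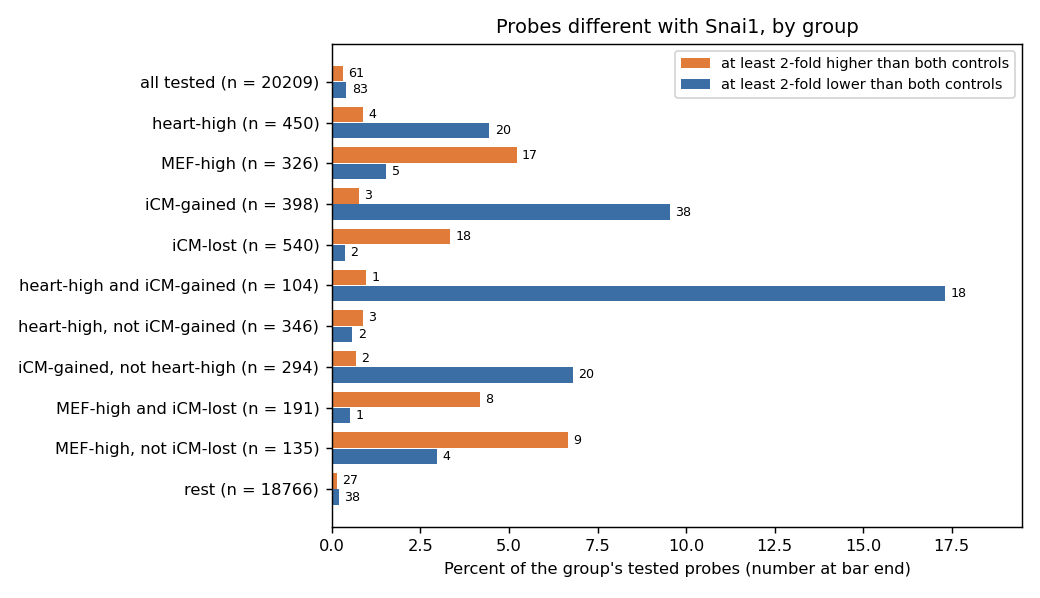
Share of each group's tested probes that were at least 2-fold higher (orange) or lower (blue) with Snai1 than both controls, in percent, with the number of probes at the bar end. The longest bar is that of heart-high and iCM-gained probes, 17.3% lower, compared with 0.411% of all tested probes.

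How large the shift was depended on the control. Heart-high probes differed by a median of −0.29 against the second control and −0.063 against the first, MEF-high probes by 0.19 and 0.075, and iCM-lost probes by 0.22 and 0.044, while the median of all tested probes was 0.0025 and 0.0024. Against the second control, 97 of 398 iCM-gained probes (24.4%) were at least 2-fold lower and 4 (1.01%) higher, beside 1.18% and 0.807% of all tested probes. Against the first, 52 (13.1%) were lower and 25 (6.28%) higher, beside 1.21% and 0.866%. Against the first control both directions thus lay above the share of all tested probes. Of 450 heart-high probes, 72 (16%) were lower and 4 (0.889%) higher against the second control. Against the first these counts were 28 (6.22%) and 17 (3.78%). The second control itself stood further from MEF than the first: its iCM-gained probes were 0.33 higher in the median and its MEF-high probes 0.16 lower. The part played by the scan session in this gap was not tested, and the day of the first control is in doubt.

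**Figure D4:**
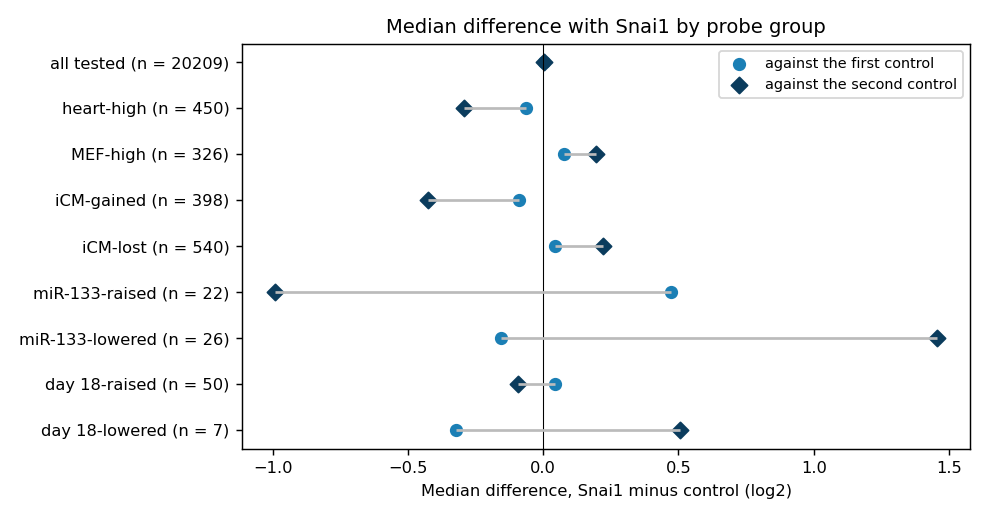
Median log2 difference of the Snai1 array from the first control (circles) and the second control (diamonds) for each probe group and for all tested probes. For the miR-133 and day 18 groups the 2 controls lie on opposite sides of 0.

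Whether Snai1 undoes what miR-133 does was addressed on probes defined by the miR-133 pairs of days 3 and 18, which do not enter this comparison. There were 22 miR-133-raised and 26 miR-133-lowered probes, at least 1.5-fold different between GMT/miR-133 and GMT in the same direction at both days. Of the 22 raised probes, 0 were at least 2-fold lower than both controls, beside 0.411% of all tested probes. At so small a share, 22 probes are too few for this 0 to tell. Of the 26 lowered probes, 2 (7.69%) were at least 2-fold higher than both, beside 0.302%: M300003525 and M300005412. M300005412 was at 8.53 and 7.86 on the controls and at 9.59 with Snai1, close to the 9.51 of MEF.

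Against the second control alone most of these probes moved against the miR-133 direction, and against the first most did not. Of the 22 raised probes, 18 were lower with Snai1 than on the second control, by a median of −0.99, but 19 were higher than on the first, by a median of 0.47. Of the 26 lowered probes, 23 were higher than on the second control, by a median of 1.46, and 14 were lower than on the first, with a median of −0.16. On 15 raised and 13 lowered probes the Snai1 array lay between the 2 controls. The second control was past the first in the miR-133 direction at 22 of 22 raised and 25 of 26 lowered probes, although both are titled GMT/miR-133.

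The day 7 GMT array gives a common zero for these probes. Relative to it, raised probes had medians of 0.39 on the first control, 1.97 on the second and 0.77 with Snai1. Lowered probes had medians of −0.71, −2.07 and −0.86. With Snai1, 21 of 22 raised and 23 of 26 lowered probes were on the miR-133 side of the GMT array, which was scanned with the first control. On the first control these counts were 17 and 26, and on the second 22 and 26. M300012836, a raised probe, was at 6.54 with GMT, 8.01 and 11.00 on the controls and 8.28 with Snai1. M200013648, a lowered probe, was at 12.56 with GMT, 10.83 and 8.16 on the controls and 10.90 with Snai1. At both, the Snai1 array was close to the first control. M300012836 was picked after its values were seen.

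**Figure D5:**
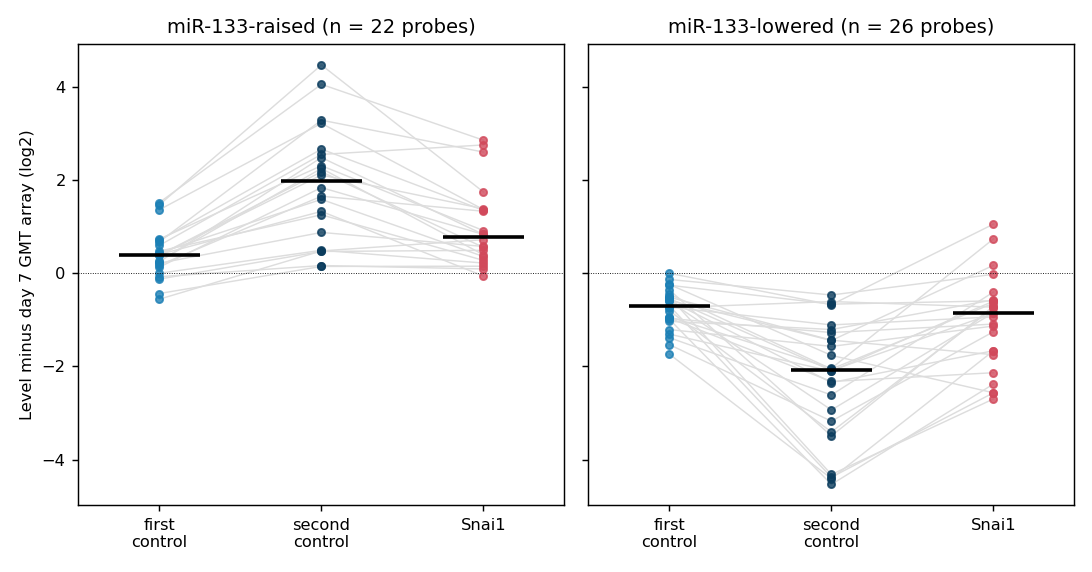
Log2 level minus that of the day 7 GMT array for the 22 miR-133-raised and 26 miR-133-lowered probes on the first control, the second control and the Snai1 array. Grey lines join a probe, black bars are medians, and the second control lies furthest from 0 in both panels, with medians of 1.97 and −2.07.

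Probes that differed 2-fold in opposite directions from the 2 controls lie between them by definition. The wide gap between their controls is therefore built in. M300000003 was at 11.26 on the first control, 7.46 on the second and 9.08 with Snai1. M200000992 was at 11.12, 7.45 and 9.26, and M200001767 at 11.15, 7.61 and 9.76. All 3 were iCM-lost probes with a high MEF level, at 13.24, 14.08 and 14.84. In the other direction M200009225 was at 7.70 on the first control, 10.39 on the second and 9.38 with Snai1, and M200014014, heart-high, at 6.44, 8.96 and 7.74. M300001423 and M200001037, both heart-high, were likewise between their controls, at 9.94 and 8.75. The largest increase against the second control alone was of the same kind: M300004979 was at 9.95 there and at 12.73 with Snai1, but at 13.08 on the first control.

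Of 50 tested probes that were at least 2-fold higher at day 18 than at day 3 in both arms, 3 (6%, beside 0.302% of all tested probes) were higher than both controls, M200000033, M200007693 and M200009370, and 0 were lower; these 3 are named as the whole of that count, after their values were seen. The group's medians were −0.094 against the second control and 0.043 against the first. The 7 probes lower at day 18 had medians of 0.51 against the second control and −0.32 against the first. Over the whole profile, Spearman's rho with heart was 0.884 on the Snai1 array, 0.882 on the second control and 0.893 on the first, and rho with MEF was 0.910, 0.890 and 0.920. These are descriptions across probes that share array and session.

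A test of the Snai1 difference can be had only by borrowing a spread from other arrays. limma's model on the 8 iCM arrays, with arm and a block for each day within a session, compares Snai1 with the second control and takes the spread from how the miR-133 difference varies between days. It assumes that the lone Snai1 array varies like the others and leaves out differences between sessions. Of all 20209 tested probes, 398 are iCM-gained, which is the base for the counts of such probes below. It called 485 of 20153 probes (2.41%) at an adjusted p of 0.05, with 210 higher and 275 lower, among them 38 of the 61 and 55 of the 83. The lower calls held 70 iCM-gained probes and the higher ones 3. With day alone as the block, so that the gap between the controls enters the spread, 21 probes (0.104%) were called, 8 higher and 13 lower, and 8 of the 13 were iCM-gained. On the 3 arrays alone limma called 0, with 1126 probes (5.57%) at an unadjusted p under 0.05.

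The probes called with day alone were those on which the controls were close, with gaps of at most 0.33. M300007301 had the smallest p, at −2.47 ± 0.070 (SE; limma, adjusted p = 0.00668). M200008066 was also called, but it was not detected on the second control and lay between 5.70 and 6.05 on all 7 other iCM arrays, near the floor, where the offset compresses the spread, so its difference there is only the bound given above. M300017999, M300001860, M400003038 and M200006901 were called at a limma adjusted p of 0.0389, and M300007075 and M400011429 at a limma adjusted p of 0.0442. M300020782, which had the largest decrease, was called within the session (limma, adjusted p = 0.0251) and not with day alone (limma, adjusted p = 0.0864). The same was true of M200002530, with limma adjusted p-values of 0.0340 and 0.0914. Of the 24 named probes, 21 were called within the session and 8 with day alone.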

How the data were processed

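Amplified RNA coupled to Cy5 was hybridised to TORAY mouse chips, per the labels. The deposited scanner files hold the median spot intensity of 27456 spots with no normalization, per the file headers. Of these, 23474 spots carry 23473 probes and 2736 are blank. The authors' value table, with intensity columns of median near 25.0 and dim probes empty, was an alternative only; the sources used here do not give its scaling. Spots were corrected with limma 3.58.1 (R 4.3.3) by normexp fitted to the blank spots (offset 50), quantile-normalized over 10 arrays and log2-transformed. The offset compresses differences of dim probes. Detected means above the 95th percentile of blank spots, a lenient limit. Scan sessions were read from the file headers. The limma fits used Benjamini-Hochberg adjustment and probes that 3 or more of the 8 iCM arrays detected. The fit with day within session and the 2-fold rule were also run on simulated data with known changes. Those data had noise set below the spread of the GMT/miR-133 arrays and no difference between sessions. They therefore cannot show how many calls here are false. Named probes are the 12 with the largest smaller-of-2 difference in each direction, 4 heart-high lower, 4 MEF-high higher, 4 per direction with opposite differences, and 4 per direction against the second control; others are said to be picked later. Arrays, groups and lists were chosen with earlier results of these data known. Chip position was checked: the 24 blocks held 2 to 11 of the 144 probes. Alternatives were the background, offset, normalization, filter, fold limit, controls, exchanged days and the value table.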

Additional observations from a re-analysis of the deposited data

How the results depend on the processing

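No paired analysis was possible because the Snai1 group has 1 array. The counts of 61 higher and 83 lower probes were within 1.5-fold under no background subtraction, median scaling, no filter, detection on all 3 arrays, quantile normalization of the 3 arrays and a raised floor, the last added after seeing the data. They were 107 and 157 with an offset of 16, 248 and 325 at 1.5-fold, 9 and 18 at 3-fold, and 305 and 805 in the authors' value table, which carries the day 3 file as the first control. With local background 142 were lower, and of the 61 and 83 only 27 and 34 were among its calls. The day 3 file as the first control gave 92 higher, with 48 of the 61 and 63 of the 83 shared. The day 7 GMT array as a further control gave 37 higher. All 7 other iCM arrays as controls, added after seeing the data, gave 21 and 42. Leaving out a control gave 163 to 175 higher and 238 to 245 lower. No probe of the 144 passed 2-fold in the other direction against both controls under the background, scaling, offset and value-table alternatives. Where a control was left out, exchanged or added, this could not happen, because a difference already past 2-fold was kept. Among iCM-gained probes the lower share was 8.33% to 32.7% under the alternatives, compared with 0.327% to 4.19% of all tested probes in the same settings; the day 3 file, the first control in the value table and with exchanged days, also helped define that group. Of the 25 probes named for a shared direction, 21 stayed past 2-fold with local background. M200005725 reversed there, at 0.51, and M200001390, M300013932 and M300007075 fell to 0.62, 0.94 and 0.95.

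Over both controls, the median was −0.18 for heart-high, 0.13 for MEF-high, −0.26 for iCM-gained and 0.13 for iCM-lost probes, and −0.62, 0.046, −0.78 and 0.37 in the value table. MEF-high was at 0.24 with local background. The miR-133-raised median of −0.26 and the lowered one of 0.65 turned to 0.47 and −0.16 against the first control alone, and lay at −0.99 and 1.46 against the second. The day 18-raised median of −0.026 was 0.043 against the first control, −0.094 against the second, −0.13 with local background and −0.64 in the value table. The day 18-lowered median of 0.091 turned to −0.32 against the first control, −0.046 with local background and −0.068 with median scaling. The limma count of 485 is not firm: 21 with day alone, 0 on the 3 arrays, 1520 with a trended and robust variance, 71 with median scaling, 9 with no filter, and 0 with local background (1404 at an unadjusted p under 0.05). The cause was not tested. Exchanging the days only renames the blocks of this fit, so its count of 485 there says nothing about stability. Dim probes near the blank spots limit what can be measured, most on the arrays of the later session.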
